A study of Rattus norvegicus with 6 samples.

Results

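The miR-15, miR-16, miR-195 and miR-497 family is a group of small regulatory RNAs that share the start of their sequence and repress overlapping sets of messenger RNAs. Its members were taken from the deposited table by name, as every rat entry called miR-15a, miR-15b, miR-16, miR-195 or miR-497, from either arm of the hairpin. This gave 9 of the 721 listed entries and 9 of the 539 known miRNAs. They were followed in 6 libraries of testicular tissue from Sprague-Dawley rats, 3 from rats with streptozotocin (STZ)-induced diabetes at week 8 and 3 labelled normal. According to the study's methods, the diabetic rats ate a high-fat diet before a single intraperitoneal STZ dose, only rats with lasting high blood glucose were kept, and control rats were injected with citrate buffer. The design models type 2 diabetes, and STZ is a toxin of the pancreatic beta cells that make insulin. The animals were adult males per the study, and their exact age and the diet of the control rats were not given in the sources used here. The labels do not say that each library came from its own animal, so the p-values measure the spread between these libraries.

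A miRNA is cut from a hairpin whose arms give a 5p and a 3p strand. One strand usually enters the silencing complex, and its bases 2 to 8, the seed, pair with target messenger RNAs. miR-15 and miR-16 are known as brakes on the cell cycle and survival. Cyclins, cyclin-dependent kinases and the anti-apoptotic gene Bcl2 are among their best-known targets. Loss of miR-15a with its partner miR-16 gene is a hallmark of chronic lymphocytic leukaemia. miR-195 and miR-497 belong to the same family and are known for restraining division of heart muscle cells after birth. The testis holds dividing germ cells beside somatic Sertoli, Leydig and peritubular cells. These libraries were made from whole tissue, so fewer cells of a type and less RNA per cell cannot be told apart.

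The mature sequences came from RefSeq (build GRCr8), which held 8 of the 9 members. miR-15a-5p had no entry. The 5p strands are shown because their shared seed, in capitals, is what defines the family:
miR-15b-5p: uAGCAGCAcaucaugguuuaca
miR-16-5p: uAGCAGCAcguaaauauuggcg
miR-195-5p: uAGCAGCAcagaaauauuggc
miR-497-5p: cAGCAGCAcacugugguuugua

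All 4 carried the seed AGCAGCA. Over the whole strand, seed included, miR-16-5p and miR-195-5p were the closest pair of the 4 and agreed at 19 of 21 positions counted from the 5′ end, whereas miR-16-5p and miR-497-5p agreed at 11 of 22. miR-497-5p was closer to miR-15b-5p, with 16 of 22 positions alike. How reads that match several such miRNAs were shared out was not stated, so the split of reads between members with like sequences is uncertain.

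The 3p strands are shown because, unlike the 5p strands, each had a seed of its own, again in capitals:
miR-15b-3p: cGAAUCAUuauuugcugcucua
miR-16-3p: aCCAAUAUuauugugcugcuu
miR-195-3p: cCAAUAUUggcugugcugcucca
miR-497-3p: cCAAACCAcacugugguguuaga

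The seeds of miR-16-3p (CCAAUAU) and miR-195-3p (CAAUAUU) were not identical but overlapped in CAAUAU at shifted positions. Near their 3′ ends miR-15b-3p, miR-16-3p and miR-195-3p held UGCUGCU, the reverse complement of the shared 5p seed, and miR-497-3p did not. Of the 492 known miRNAs of the table with a RefSeq sequence, 5 had the seed AGCAGCA. They were the 4 members above and miR-322-5p (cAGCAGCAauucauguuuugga), which lies outside the naming rule.

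In the RefSeq annotation of GRCr8 the members with an entry came from a pair of neighbouring-gene loci. Mir15b and Mir16 stood next to each other on chromosome 2, inside the span of Smc4, which encodes a condensin subunit. On the plus strand miR-15b-5p lay at chr2:155555197-155555218 and miR-16-5p at chr2:155555343-155555364. Mir497 and Mir195 were neighbours on chromosome 10 and overlapped no other gene of the table. miR-497-5p lay at chr10:55450172-55450193 and miR-195-5p at chr10:55450509-55450529, both on the plus strand. The table gives gene spans only, so exon or intron was not assigned.

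The libraries held from 305476 to 549446 miRNA reads. Levels are given as CPM, in which every library is scaled to the same total of miRNA reads, and 1 read was worth between 1.82 and 3.27 CPM. All deposited values came out as whole reads within the rounding of the table (0.05 CPM). A read is 1 whole miRNA, so members of nearly equal length can be compared without a length correction, although cloning efficiency differs between sequences. The family took 0.573% ± 0.0398 of miRNA reads in diabetic and 0.615% ± 0.0502 in normal testis (SD, n = 3 each; two-sided exact permutation p = 0.3). The smallest p that 3 against 3 libraries allow is 0.1. Diabetic replicate 1 had the lowest share, 0.546%, and normal replicate 3 the highest, 0.672%, and the groups overlapped. The 4 members found with the seed AGCAGCA held 0.558% ± 0.0444 and 0.5996% ± 0.0505 (SD, n = 3 each; exact permutation p = 0.4). miR-15a-5p, without a RefSeq sequence, was not counted among them.

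**Figure D1:**
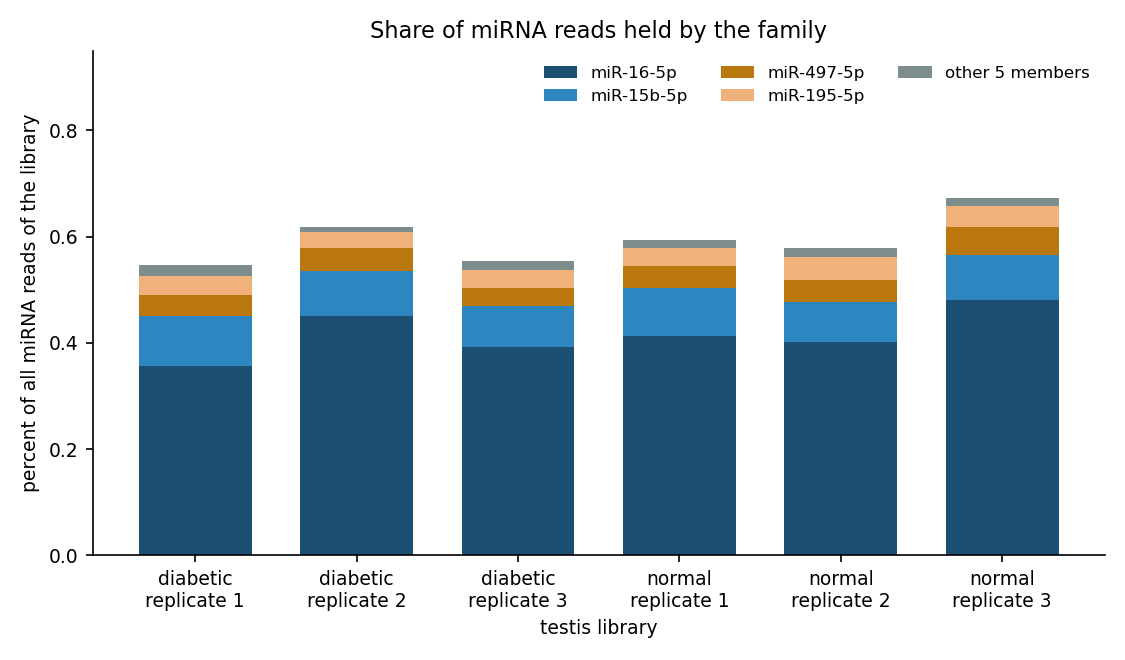
Percent of all miRNA reads of each library (vertical axis) held by the family, stacked by member, in the 3 diabetic and 3 normal testis libraries. miR-16-5p fills most of every bar, and the whole bar runs from 0.546% to 0.672% with no gap between the groups.

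miR-16-5p dominated the family in every library, with 65.2% to 72.8% of its reads. Together with its neighbour miR-15b-5p it made up 82.4% to 86.4%, and miR-195-5p with miR-497-5p made up 11.95% to 14.8%. By mean level over the 6 libraries the order was miR-16-5p, miR-15b-5p, miR-497-5p, miR-195-5p, miR-15b-3p, miR-195-3p, miR-15a-5p, miR-16-3p and miR-497-3p. miR-16-5p ranked 36th and miR-15b-5p 89th among the 539 known miRNAs, whereas miR-497-5p and miR-195-5p ranked 123rd and 128th. Neighbours in this order kept it in 6 of 6 libraries with ranges that did not overlap, except for 3 pairs. miR-497-5p was above miR-195-5p in 4 of 6 libraries. miR-15a-5p was above miR-16-3p in 4 and equal to it in 1. miR-16-3p was above miR-497-3p in 5 and equal to it in 1.

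**Figure D2:**
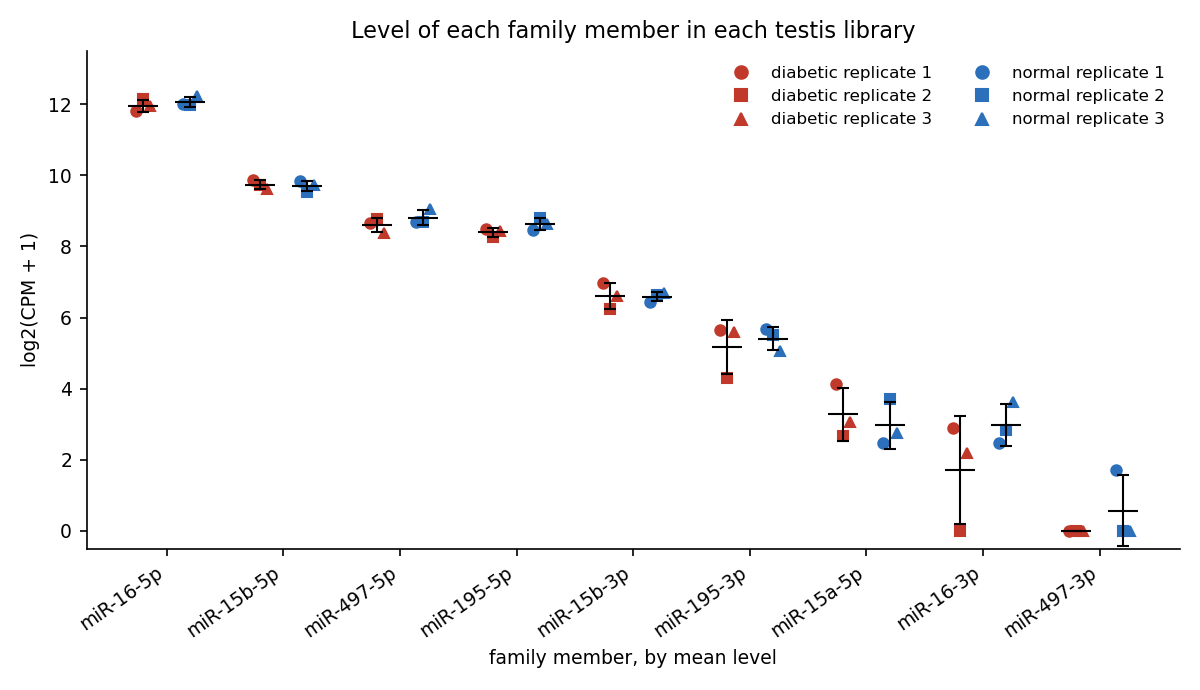
Level of each of the 9 members on the log2(CPM + 1) scale (vertical axis) in each library. Points are single libraries, and the horizontal mark with its bar is the group mean with its SD (n = 3). The members fall from miR-16-5p, at 3562 to 4810 CPM, to miR-497-3p, at 0 in 5 of 6 libraries, and the 2 groups overlap for each of them.

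The central comparison asked whether any member differed between diabetic and normal testis. None did by the test used. In limma on log2(CPM + 1), 8 members could be tested, and 0 had an adjusted p under 0.05, where 0% of all 578 tested miRNAs did. At an unadjusted p under 0.05 there were also 0 members, against 51 miRNAs or 8.82% of all tested. On the recovered reads, edgeR called 0 members and 0.346% of all miRNAs, and DESeq2 called 0 members and 0.173%. Neither tool had a member at an unadjusted p under 0.05. The groups did not overlap for 0 of the 8, compared with 14.9% of all tested miRNAs. In diabetic testis 5 members had a log2 change under 0, as did 49.5% of all miRNAs. That number was 6 with DESeq2 size factors and 7 with TMM or upper-quartile factors. The median log2 change was -0.16 over the members and 0.0046 over all tested. These scalings also moved the median over all tested miRNAs, to -0.03 with DESeq2 size factors, -0.04 with TMM factors and -0.10 with upper-quartile factors. Without diabetic replicate 1 all 8 tested members were under 0, and the median over all tested was -0.02. Without diabetic replicate 2 only 4 members were under 0, and the median over all tested was 0.02. The members' median was -0.05 without diabetic replicate 2 and -0.06 without normal replicate 3. The direction was not firm for 4 members, as given below with each of them.

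miR-16-5p, the most abundant member and a regulator of cyclins and Bcl2, was at 3562, 4505 and 3913 CPM in diabetic replicates 1, 2 and 3. In normal replicates 1, 2 and 3 it was at 4123, 4024 and 4810 CPM. Diabetic replicate 1 was lowest and normal replicate 3 highest, but diabetic replicate 2 stood above both remaining normal libraries. The group means were 3993 ± 477 and 4319 ± 428 CPM (SD, n = 3 each). The fitted log2 difference was -0.12 ± 0.11 (SE), with a 95% interval from -0.35 to 0.12 (limma adjusted p = 0.795). It was -0.04 without diabetic replicate 1 or without normal replicate 3, and -0.21 without diabetic replicate 2. With 1088 to 2550 reads per library, counting error alone would give a coefficient of variation of 2.35% over the 6 libraries, and 10.7% was measured. Both groups are pooled in that value, so any difference between them is part of it.

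miR-15b-5p, which is encoded beside miR-16, had nearly equal levels in both groups. It was at 939.5, 841 and 788 CPM in the diabetic libraries and at 911, 743 and 839 CPM in the normal ones. The highest value was in diabetic replicate 1 and the lowest in normal replicate 2. Its fitted log2 difference was 0.04 ± 0.13 (SE), with a 95% interval from -0.24 to 0.33 (limma adjusted p = 0.874). Its sign turned to -0.0061 with TMM factors, to -0.06 with upper-quartile factors, to -0.02 without diabetic replicate 1 and to -0.03 without normal replicate 2.

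miR-195-5p had the lowest mean log2 change among the 5p strands. It was at 357, 304 and 348 CPM in diabetic and at 351, 445 and 394 CPM in normal testis. Normal replicates 2 and 3 stood above all diabetic libraries, while normal replicate 1 fell between diabetic replicates 1 and 3. The means were 336 ± 28.4 and 397 ± 46.7 CPM (SD, n = 3 each), and the fitted log2 difference was -0.24 ± 0.16 (SE), with a 95% interval from -0.58 to 0.11 (limma adjusted p = 0.728, the smallest of the family).

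miR-497-5p, cut from the hairpin next to miR-195, was at 406, 435 and 331 CPM in diabetic and at 410.2, 410.1 and 526 CPM in normal libraries. Diabetic replicate 3 was the lowest and normal replicate 3 the highest, and diabetic replicate 2 lay above the other two normal libraries. Its fitted log2 difference was -0.20 ± 0.17 (SE), with a 95% interval from -0.55 to 0.16 (limma adjusted p = 0.795). Without normal replicate 3 the log2 change was -0.08, and without diabetic replicate 3 it was also -0.08.

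miR-15a-5p, which is known as the partner of a further miR-16 gene in other mammals, was scarce in this tissue. It had 5, 2 and 4 reads in the diabetic and 2, 6 and 3 reads in the normal libraries, which gives 16.4, 5.4 and 7.3 CPM against 4.5, 12.2 and 5.7 CPM. Both groups summed to 11 reads. The ratio of diabetic to normal, corrected for depth, was 1.19, and its 95% counting interval (exact binomial) ran from 0.469 to 3.03. Its log2 change was 0.31 with a 95% interval from -1.25 to 1.87 (limma adjusted p = 0.848), and it turned to -0.11 without diabetic replicate 1. Changes across that whole interval were compatible with these values, which rest on few reads, and no smallest detectable change was worked out.

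**Figure D3:**
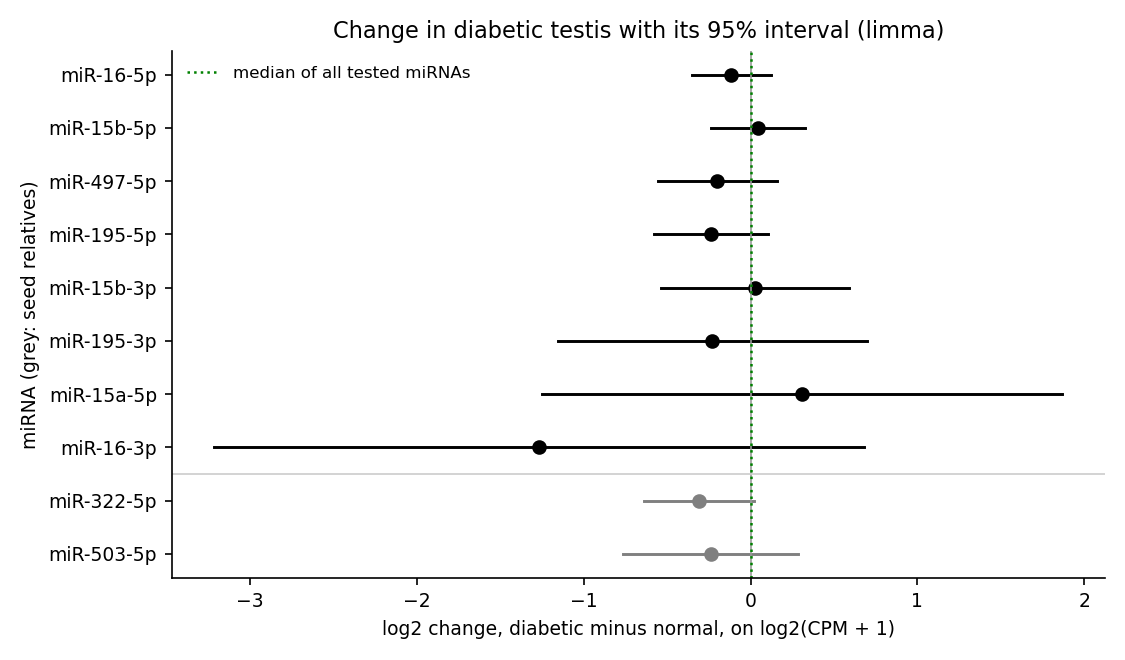
Log2 change of diabetic against normal testis on the log2(CPM + 1) scale (horizontal axis) with its 95% interval from limma, for the 8 tested members in black and the seed relatives miR-322-5p and miR-503-5p in grey. The dotted line is the median of all tested miRNAs, 0.0046. Each interval includes 0, and the narrowest belongs to miR-16-5p and the widest to miR-16-3p.

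Among the 3p strands, which are the minor products of these hairpins, miR-15b-3p was the most abundant. It was at 124, 75.3 and 96.5 CPM in the diabetic and at 86.1, 97.4 and 102 CPM in the normal libraries. Diabetic replicates 1 and 2 held both the highest and the lowest value of all 6. Its fitted log2 difference was 0.03 ± 0.26 (SE), with a 95% interval from -0.54 to 0.59 (limma adjusted p = 0.974). The sign turned to -0.0054 with DESeq2 size factors, -0.02 with TMM factors and -0.08 with upper-quartile factors, and to -0.15 without diabetic replicate 1 and -0.04 without normal replicate 1.

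miR-195-3p was at 49.1, 18.8 and 47.3 CPM in diabetic and at 49.9, 44.7 and 32.1 CPM in normal testis. Diabetic replicate 2 was the lowest of the 6, on 7 reads. The fitted log2 difference was -0.23 ± 0.44 (SE), with a 95% interval from -1.16 to 0.70 (limma adjusted p = 0.846), and it turned to 0.21 without diabetic replicate 2.

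miR-16-3p was read 2, 0 and 2 times in diabetic and 2, 3 and 6 times in normal testis. At 3 reads or fewer in every diabetic library it was at the limit of what these depths can measure. Summed reads were 4 against 11, a depth-corrected ratio of 0.434 with a 95% counting interval from 0.101 to 1.46 (exact binomial). The fitted log2 change was -1.27 with a 95% interval from -3.22 to 0.68 (limma adjusted p = 0.761). It moved to -2.35 with a pseudocount of 0.1 CPM, to -0.42 without diabetic replicate 2 and to -1.87 without diabetic replicate 1. miR-497-3p had a single read, in normal replicate 1, and was not tested. A count of 0 allows up to 3 reads, which is 5.46 to 9.82 CPM in the diabetic libraries.

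The arms of a hairpin can be compared within a library, where scaling plays no part. In the miR-15b and miR-195 hairpins about the same share of reads came from the 3p arm. In diabetic testis miR-15b gave 10.3% ± 1.83 and in normal testis 10.4% ± 1.53 (mean ± SD of 3 libraries; exact permutation p = 1). For miR-195 it was 9.97% ± 3.58 and 9.69% ± 2.502 (SD, n = 3 each; exact permutation p = 1). miR-195 gave its lowest share, 5.83%, in diabetic replicate 2 (7 of 120 reads; 95% Wilson interval from 2.85% to 11.6%), and its highest, 12.4%, in normal replicate 1 (22 of 177 reads; 8.35% to 18.1%).

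The miR-16 and miR-497 hairpins were read almost only from the 5p arm. The miR-16 3p share was 0.0921% ± 0.0917 and 0.165% ± 0.0636 (SD, n = 3 each; exact permutation p = 0.4). For miR-497 it was 0.549% in normal replicate 1 (1 of 182 reads) and 0 in the other libraries, where 0 of 124 reads, the fewest, allows up to 2.42%. Its exact permutation p was 1, which any split gives when only 1 library is above 0, so this test could not show a difference. Adjusted over these 4 hairpins, each exact permutation p was 1. Within every library the 95% Wilson intervals of miR-15b and miR-195 lay above those of miR-16 and miR-497. miR-16 and miR-15b are neighbours, as are miR-497 and miR-195. As annotated, each locus thus held 1 hairpin with a measurable 3p strand and 1 nearly without. miR-15a-5p was listed but had no RefSeq entry. Whether some miR-16-5p reads came from a further miR-16 gene was not tested, and such reads would lower the miR-16 3p share. Wilson intervals and floors cover counting error only.

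**Figure D4:**
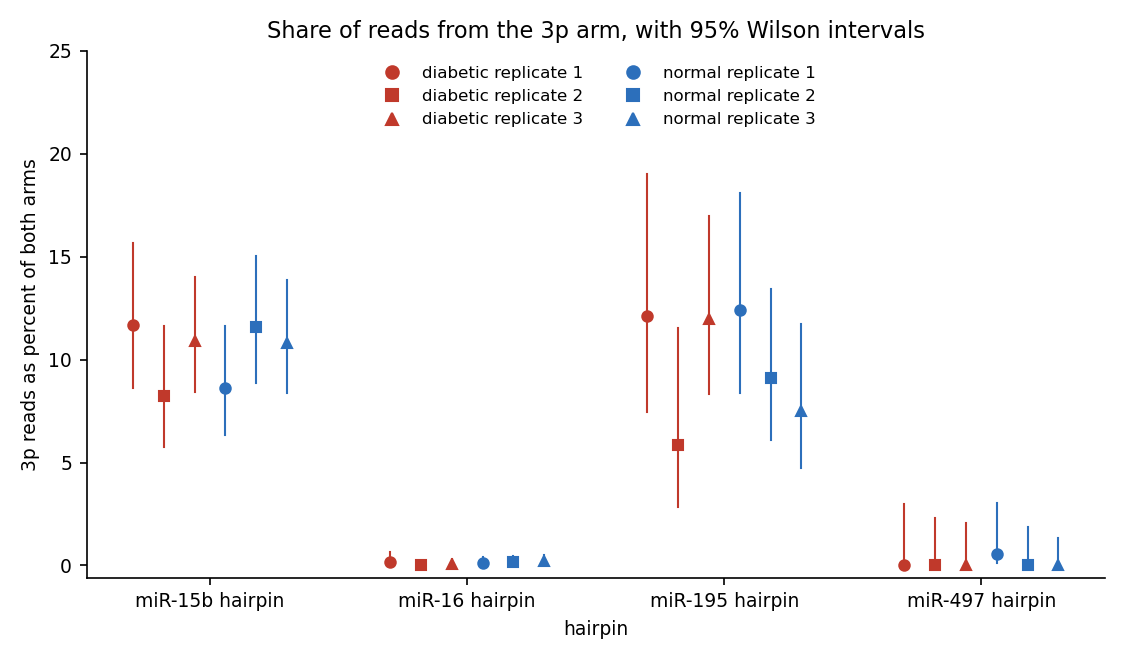
Reads of the 3p arm as a percent of both arms (vertical axis) for the 4 hairpins whose arms are both listed, in each library, with 95% Wilson intervals. miR-15b and miR-195 lie between 5.83% and 12.4%, and miR-16 and miR-497 at or below 0.549%, in diabetic and normal libraries alike.

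Ratios between members within a library asked whether the balance of the family shifted. miR-16-5p exceeded miR-15b-5p by a log2 ratio of 1.92, 2.42 and 2.31 in diabetic and of 2.18, 2.44 and 2.52 in normal libraries. The means were 2.22 ± 0.26 and 2.38 ± 0.18 (SD, n = 3 each; exact permutation p = 0.5). Diabetic replicate 1 was the lowest, and without it the difference between the groups went from -0.16 to -0.01.

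The miR-497-5p to miR-195-5p log2 ratio was 0.19, 0.52 and -0.07 in diabetic and 0.22, -0.12 and 0.42 in normal testis (exact permutation p = 0.8). It lay on both sides of 0 in each group, so neither member was steadily the higher one. The miR-195-5p to miR-16-5p log2 ratio, which compares members of the 2 loci, was -3.32, -3.89 and -3.49 in diabetic and -3.55, -3.18 and -3.61 in normal libraries (exact permutation p = 0.6). The differences between groups were smaller than the SD of either group for all 3 ratios. Leaving out diabetic replicate 2 or normal replicate 2 turned the sign of the last 2 differences.

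**Figure D5:**
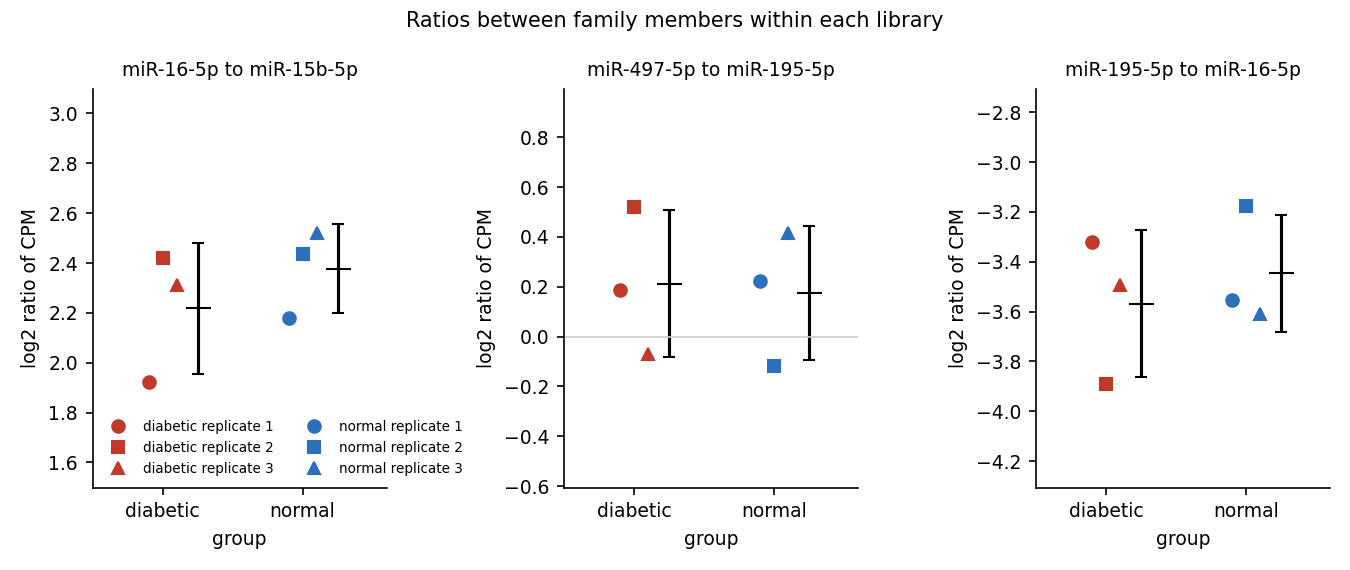
Log2 ratio of CPM between members of one library (vertical axis, a different range in each panel) for the diabetic and normal groups. Points are libraries and bars are the mean with its SD (n = 3). In each panel the 2 groups overlap.

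The miRNAs listed as relatives outside the naming rule and present among the deposited miRNAs were miR-322-5p, miR-503-5p and miR-6216. miR-322-5p, whose gene is X-linked, shares the full seed. It was at 403, 427 and 391 CPM in diabetic and at 494, 595 and 438 CPM in normal testis. All 3 diabetic libraries were below all 3 normal ones, which held in one direction or the other for 14.9% of tested miRNAs. Its fitted log2 difference was -0.31 ± 0.15 (SE), with a 95% interval from -0.64 to 0.02 (limma adjusted p = 0.567), so it did not pass the threshold. It held 6.24% to 9.57% of the reads of the 5 miRNAs found with this seed, where miR-15a-5p, without a RefSeq sequence, was not counted. miR-503-5p (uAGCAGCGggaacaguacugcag) has the seed AGCAGCG, shown in capitals, and is X-linked too. It was at 139 ± 29.6 and 164 ± 38.1 CPM (SD, n = 3 each; log2 change -0.24, limma adjusted p = 0.795). miR-6216 had the unlike seed AUACACA, so its seed does not make it a relative, and it had 2 reads in all. The name miR-424-5p, also on the list of relatives, was not among the deposited miRNAs and had no RefSeq sequence. Nothing was therefore analysed under that name.

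miR-16 is also abundant in red blood cells, so miRNAs of other cells were measured beside it. The 4 red blood cell miRNAs (miR-451-5p, both strands of miR-144, and miR-486) summed to 544 to 782 CPM in diabetic and to 678 to 741 CPM in normal libraries (exact permutation p = 0.6). Their sum was below the level of miR-16-5p in each library, and 0 of the 4 had an adjusted p under 0.05 in limma. Diabetic replicate 1, with the lowest miR-16-5p, had the highest red blood cell sum. White blood cell miRNAs (4) summed to 495 to 652 against 592 to 762 CPM (exact permutation p = 0.2). Of these, miR-142-3p did not overlap, at 304 to 363 CPM in diabetic and 394 to 522 CPM in normal testis. miR-142-5p, miR-223-3p and miR-150-5p did overlap. In limma 3 of the 4 had a log2 change under 0. The other was miR-150-5p, with means of 187 CPM in diabetic and 163 CPM in normal testis. The sums were, for contractile cell miRNAs (2), 85368 to 95342 against 78599 to 96768 CPM. Striated muscle miRNAs (3) summed to 27.2 to 58.9 against 18.8 to 28.5 CPM. Germ cell miRNAs (3), led by miR-34c-5p and defining for this tissue, took 306194 to 328615 against 300900 to 350260 CPM. Endothelial miRNAs (2) did not overlap, at 11722 to 13783 against 8662 to 11086 CPM (exact permutation p = 0.1). Nor did the liver miRNA miR-122-5p, at 935.5 to 1372 against 1839 to 2786 CPM (exact permutation p = 0.1). Of the endothelial pair, miR-126a-3p did not overlap and miR-126a-5p did. Over all tested miRNAs, 14.9% had groups that did not overlap. Of the 19 markers 0 passed the adjusted threshold in limma. Their part in the family's values was not tested.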

How the data were processed

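Small RNA libraries of rat testicular tissue, 3 diabetic and 3 normal, were analysed. The authors removed primers and adaptors, annotated known miRNAs by miRBase family, and deposited CPM values rounded to 1 decimal in a table whose headings say TPM. The submitters' processing notes list Bowtie 0.12.2, HISAT2 2.0 and StringTie 1.3.0, with no role, and a mouse build. The library text describes poly(A) RNA, which does not match miRNA sequencing. The miRBase release was not given in the sources used here.

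Whole reads were recovered for 100% of values by finding each library's total. miRNAs at 1 CPM or more in at least 3 libraries were tested with limma 3.58.1 (trended eBayes, R 4.3.3) on log2(CPM + 1), 6 libraries, no covariate, with Benjamini-Hochberg adjustment over all tested. This scale understates changes of scarce miRNAs. Single values used two-sided exact permutation tests. edgeR 4.0.16 and DESeq2 1.42.0 on recovered reads, other scalings, pseudocounts, filters, a replicate block and leaving out each replicate were alternatives. The scripts were tested on simulated data. All family members are named. The context lists were miRNAs listed as seed relatives, cell type miRNAs and the 3 miRNAs most like miR-16-5p and miR-195-5p. Members and lists were chosen with earlier results of these data known.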

Additional observations from a re-analysis of the deposited data

How the results depend on the processing

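No family member had an adjusted p under 0.05 in limma, edgeR or DESeq2 under any of the alternatives run. The count over all miRNAs moved from 0 (51 at an unadjusted p under 0.05) to 1 unfiltered, with a minimum of 10 reads per library, with TMM factors, upper-quartile factors or the DESeq2 Wald test, to 2 with edgeR, to 8 with eBayes without the trend, and to between 0 and 2 without 1 replicate. The cause was not tested.

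Same-numbered libraries did not deviate together (correlations from -0.0894 to 0.0065 over 257 miRNAs, and 0 of 6 libraries matched their own number best). The replicate block gave 1 call over all miRNAs and 0 in the family.

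Reversed signs were -0.0054, -0.0234 and -0.0796 for miR-15b-3p with DESeq2 size factors, TMM and upper-quartile factors, and -0.0061 and -0.0629 for miR-15b-5p with the last 2. Upper-quartile factors moved the median of all tested miRNAs to -0.10. Without 1 replicate the log2 change ran from -0.11 to 0.68 for miR-15a-5p, -0.15 to 0.21 for miR-15b-3p, -0.0341 to 0.113 for miR-15b-5p and -0.46 to 0.21 for miR-195-3p. The group difference ran from -0.12 to 0.18 for the miR-497-5p to miR-195-5p log2 ratio, -0.245 to 0.0405 for miR-195-5p to miR-16-5p, and, in percentage points of 3p share, -0.938 to 0.948 for miR-15b, -0.808 to 2.35 for miR-195 and -0.275 to 0 for miR-497. miR-16-5p, miR-16-3p, miR-195-5p, miR-497-5p, the family share and the miR-16-5p to miR-15b-5p ratio kept their sign in each alternative run for them. The 3 members that averaged fewer than 10 reads are limited by depth.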

Other observations

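Whether members encoded next to each other moved together across the 6 libraries was examined after the values were seen. For log2 levels of miR-15b-5p and miR-16-5p Pearson's r was -0.217 (exact permutation p = 0.681, adjusted over the 2 pairs 0.758) and Spearman's rho -0.143 (exact permutation p = 0.803, adjusted 0.919). Without the 2 libraries farthest from the median of miR-15b-5p, r was 0.152. For miR-497-5p and miR-195-5p r was 0.200 (exact permutation p = 0.758, adjusted 0.758) and rho 0.0857 (exact permutation p = 0.919, adjusted 0.919), and r was -0.675 without the 2 farthest. Within a group only 3 libraries were available, too few for a value. A p of this size does not show that the levels were unrelated.

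Of 252 other miRNAs that reached 10 reads in each of the libraries, the 3 whose log2 levels were most like those of miR-16-5p were miR-17-5p (r = 0.963, rho = 0.943), miR-101a-3p (r = 0.881, rho = 0.943) and miR-106b-5p (r = 0.873, rho = 0.771). For miR-195-5p they were miR-181d-5p (r = 0.965, rho = 1), miR-142-3p (r = 0.965, rho = 0.943) and miR-339-5p (r = 0.957, rho = 1). These are the highest of 252 values over 6 libraries that share one scaling, and no test was made.

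The spread between libraries was above counting error, at 8.71% against 5.28% for miR-15b-5p, 14.99% against 7.44% for miR-497-5p and 13.1% against 7.93% for miR-195-5p (coefficient of variation over the 6 libraries, then that from counting alone). For miR-15b-3p, miR-195-3p, miR-15a-5p and miR-16-3p the values were 17.0% against 15.6%, 30.7% against 24.0%, 54.9% against 53.6% and 70.0% against 64.8%. The 6 libraries include both groups, so any difference between the groups is part of this spread.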
